A study of Mus musculus with 2 samples.

Results

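Tenascins, periostin, SPARC, fibronectin and CTHRC1 are secreted proteins that cells lay into the extracellular matrix, many of them during repair. 7 genes were followed by symbol among the 32285 features of the count tables: Tnc, Tnn, Tnxb, Postn, Sparc, Fn1 and Cthrc1. All 7 were present and measured. The cells came from the injured tendon area of mice aged 12 weeks, taken 14 days after tendon injury, and 3 mice were pooled for each genotype. The TrkA F592A library (title INMPP1) was set against the TrkA WT library (title Control), and both genotypes had been injured. TrkA is the receptor tyrosine kinase for nerve growth factor, and the F592A point mutation makes its kinase open to a bulky inhibitor. The sources used here do not give its dose or whether WT mice also received it, so mutation and inhibitor cannot be told apart. A point mutation does not show in counts per gene, so the genotype labels were not checked. With 1 library per genotype no difference could be tested. All intervals below are 95% intervals that cover counting error only, not the spread between mice.

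Tenascins are large multimeric glycoproteins, and the family members differ in where they occur. Tenascin-C (Tnc) and tenascin-W (Tnn) appear in growing or wounded connective tissue. Tenascin-X (Tnxb) belongs to mature connective tissue, where it takes part in the ordering of collagen fibrils. Periostin (Postn) carries fasciclin domains and binds collagen and tenascin-C, and SPARC binds collagen and calcium. Fibronectin (Fn1) forms the early fibrillar scaffold onto which other matrix proteins assemble. CTHRC1 is a secreted protein with a short collagen-like repeat that was found in injured arteries and marks activated fibroblasts.

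After filters the F592A library held 8444 cells and the WT library 11257 cells, with a median of 17886.5 and 15870 unique molecular identifiers (UMIs), which count captured RNA molecules. Cells were assigned to types by the number of marker genes detected, with none of the 7 genes among the markers. This gave 4655 F592A and 6365 WT stromal cells (at least 6 of 8 markers), with a median of 24464 UMIs in F592A and 22202 in WT. The 8 stromal markers summed to 62489 CPM (UMIs per 1000000 UMIs of the cell type in that library) in F592A and 57590 CPM in WT stromal cells, against 2155 CPM in F592A and 3546 CPM in WT neutrophils. The labels name tenocytes, and 1008 F592A and 1335 WT stromal cells scored highest on tenocyte markers. The same 764 barcodes occurred in both libraries, 7.16% of all F592A and 5.14% of all WT barcodes, and 25 F592A and 17 WT stromal cells carried such a barcode. Leaving these cells out moved the 7 stromal differences by at most 0.0086 on the log2 scale.

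The starts of the tenascin genes and of Postn are shown because the levels of Tnc and Tnn ran together across stromal cells while those of Tnxb ran against them. The lines hold the 160 bases before a RefSeq transcription start, 5' to 3' on the gene's strand, on GRCm38.p6. Capitals mark matches on either strand to TATANA, the core of a common promoter element, or to TGANTCA, the site of AP-1 factors.
Tnc, chr4:64046937-64047096, minus strand: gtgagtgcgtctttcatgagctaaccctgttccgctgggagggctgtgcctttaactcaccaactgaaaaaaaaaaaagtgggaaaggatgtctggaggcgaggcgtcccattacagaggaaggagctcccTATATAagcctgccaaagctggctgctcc
Tnn, chr1:160153576-160153735, minus strand: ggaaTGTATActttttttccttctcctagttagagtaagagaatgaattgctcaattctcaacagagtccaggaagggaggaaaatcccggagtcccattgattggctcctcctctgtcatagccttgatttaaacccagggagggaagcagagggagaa
Tnxb, chr17:34670375-34670534, plus strand: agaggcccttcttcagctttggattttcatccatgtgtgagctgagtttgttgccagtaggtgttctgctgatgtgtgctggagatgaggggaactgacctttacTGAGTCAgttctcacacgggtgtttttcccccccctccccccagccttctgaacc
Postn, chr3:54360947-54361106, plus strand: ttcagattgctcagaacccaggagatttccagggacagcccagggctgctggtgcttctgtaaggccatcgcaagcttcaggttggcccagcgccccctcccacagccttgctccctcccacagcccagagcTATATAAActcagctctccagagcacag
The Tnc window held 1 TATANA match that began 29 bases before the start, and the Postn window held 2 overlapping matches, the nearer of which began 26 bases before it. In the Tnn window the only TATANA match lay far upstream, 156 bases before the start and on the other strand, and the Tnxb window held none. Of the 4 windows the Tnxb window alone held TGANTCA, 55 bases before the start. Tnc and Postn each have another listed start, not shown. At that start the Tnc match began 126 bases upstream and the Postn window held no TATANA, so the near matches depend on the start chosen. The Sparc window, also not shown, held neither TATANA nor TGANTCA. Of 32481 windows of this length in the table, 14.2% held TATANA and 4.52% held TGANTCA. A match describes letters and is no evidence that a factor binds. Windows were listed for 5 of the 7 genes.

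The genes lie on separate chromosomes except Tnn and Fn1, both on chromosome 1. On GRCm38 with GENCODE M21, Tnc spans chromosome 4 from 63959785 to 64047015 and overlaps 8030451A03Rik on the opposite strand. Tnxb spans chromosome 17 from 34670535 to 34719815 and overlaps the pseudogene Cyp21a2-ps, and Fn1 spans chromosome 1 from 71585520 to 71653200 and overlaps Apol7d on the opposite strand. The sources used here do not say whether counting used the strand, so reads of such partners may be mixed into the counts of these genes.

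All 7 genes were expressed above all in stromal cells. Of the UMIs of each gene in a library's cells, between 92.2% (Fn1 in WT) and 97.4% (Cthrc1 in F592A) lay in stromal cells. Tnc stood at 312 CPM in F592A and 368 CPM in WT stromal cells. Tnn stood at 195 CPM in F592A and 230 CPM in WT. Tnxb was alike at 139 CPM in F592A and 136 CPM in WT. Postn reached 3848 CPM in F592A and 4393 CPM in WT, and Sparc 15408 CPM in F592A and 16648 CPM in WT. Fn1 reached 6254 CPM in F592A and 6481 CPM in WT, and Cthrc1 1833 CPM in F592A and 2607 CPM in WT. UMI counts are not divided by transcript length, and levels are not compared between genes.

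**Figure D1:**
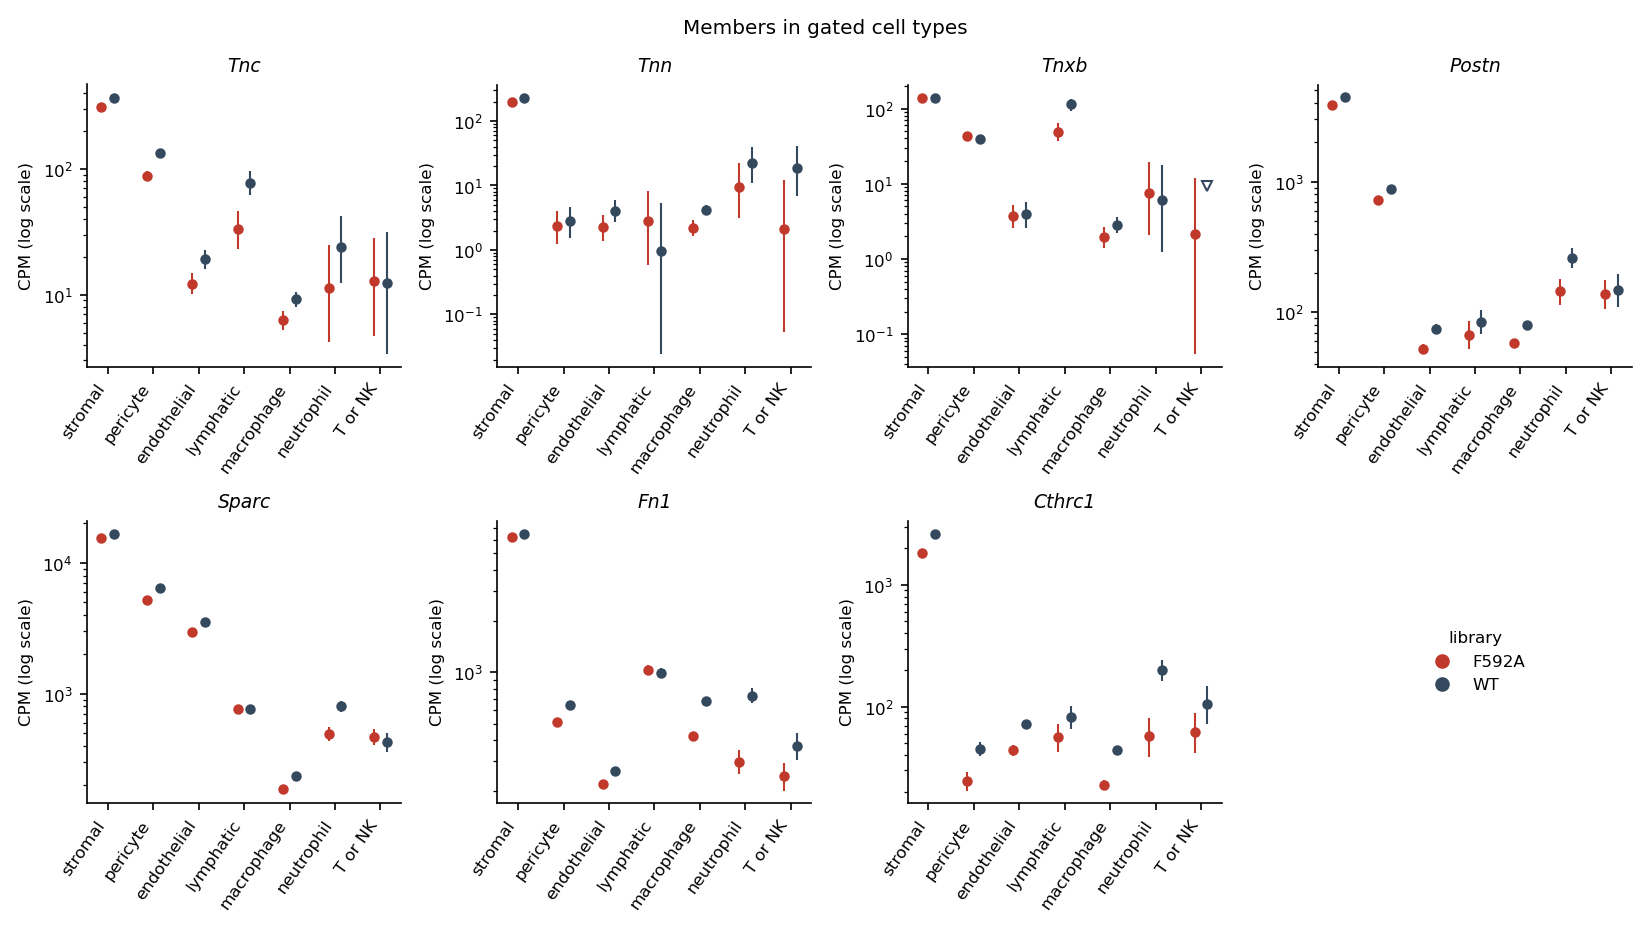
CPM of each gene (log axis) in gated cell types of the F592A and WT libraries, with exact Poisson 95% intervals for counting error. The open triangle marks 3 UMIs, where no UMI was seen. Of the plotted types stromal cells are highest for all 7 genes, and Tnxb in WT lymphatic endothelium at 113 CPM comes close to the 136 CPM of WT stromal cells.

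Outside the stroma the genes fell into different cells. Among types with at least 50 cells in each library, pericytes, the contractile cells wrapped round capillaries, came next for Tnc, with 88.6 CPM in F592A and 134 CPM in WT, for Postn, with 717 CPM in F592A and 882 CPM in WT, and for Sparc, with 5246 CPM in F592A and 6396 CPM in WT. Endothelial cells followed for Sparc, with 2981 CPM in F592A and 3551 CPM in WT. For Fn1 the next type was lymphatic endothelium, as it was for Tnxb in WT. For Tnxb in F592A the intervals of lymphatic endothelium and pericytes overlapped. Pericyte Tnxb was 43.0 CPM in F592A and 38.8 CPM in WT. Lymphatic Tnxb was 49.4 CPM in F592A (52 UMIs) and 113 CPM in WT (118 UMIs), and the WT value overlapped WT stromal cells within the counting interval. Lymphatic Fn1 was 1034 CPM in F592A and 992 CPM in WT. Tnn and Cthrc1 had no second type above the background, since next in order came neutrophils or T and NK cells, which should lack them. Neutrophils gave a background of 9.50 CPM in F592A and 22.0 CPM in WT for Tnn, and of 57.0 CPM in F592A and 198 CPM in WT for Cthrc1. Neighbours whose intervals overlapped, such as Tnc in endothelial cells, T or NK cells and neutrophils of both libraries, are not ordered here. Smooth muscle cells numbered 79 in F592A but 37 in WT, and are kept out of the order. They held 2588 F592A and 1437 WT UMIs of Sparc, and 838 F592A and 254 WT UMIs of Fn1. Of Tnc they held 55 F592A and 69 WT UMIs, and the WT count came to 209 CPM, above WT pericytes at 134 CPM.

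Shares of cells with a UMI followed the levels. Tnc was detected in 69.1% of F592A (95% exact binomial interval 67.8 to 70.5%) and 77.0% of WT stromal cells (76.0 to 78.1%). Neutrophils showed it in 4.55% of F592A and 5.73% of WT cells, at a median of 3058.5 UMIs in F592A and 2496 in WT. With every cell thinned to 2000 UMIs, Tnc was seen in 28.6% of F592A and 36.9% of WT stromal cells, against 3.28% of F592A and 3.75% of WT neutrophils. Tnn was seen in 43.3% of F592A and 58.0% of WT stromal cells, and after thinning in 16.2% of F592A and 23.6% of WT cells. Tnxb was seen in 36.3% of F592A and 35.4% of WT stromal cells, and after thinning in 17.5% of F592A and 16.7% of WT cells. Thinning left out 23 F592A and 46 WT stromal cells. As counted, the tenascins were concentrated in few cells. The 10% of stromal cells with the most Tnxb held 64.1% of its summed per-cell CPM in F592A and 65.1% in WT. For Tnn that share was 64.5% in F592A and 49.0% in WT, and for Tnc 46.3% in F592A and 39.4% in WT. Sparc had the smallest such share of the 7, with 21.2% in F592A and 20.2% in WT. These shares were not matched for level, and counting noise raises them for genes with few UMIs per cell. F592A stromal cells held 16729 UMIs of Tnxb and 1857829 of Sparc. The part of counting noise in the shares was not tested.

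Among stromal subsets Tnc and Tnn shared their peak, and Tnxb occupied other cells. Cells were placed in 7 subsets by their highest marker score, and no gene of the 7 is among those markers. Another 261 F592A and 580 WT stromal cells scored too low for any subset. These had 397 CPM of Tnc in F592A and 553 CPM in WT, where the interval overlapped that of the highest subset. Of the 7 subsets, Tnc was highest in the fibrochondrocyte-like subset (Acan, Sox9 and related markers), at 542 CPM in F592A and 540 CPM in WT. Tnn was highest in the same subset, at 505 CPM in F592A and 411 CPM in WT. Tnxb was nearly absent there, at 4.53 CPM in F592A and 8.97 CPM in WT. In tenocyte-like cells Tnxb was also low, at 10.5 CPM in F592A and 10.1 CPM in WT. Its peak was the Cd55 subset, at 539 CPM in F592A and 487 CPM in WT. The Pi16 adventitial subset followed, at 352 CPM in F592A and 359 CPM in WT. The Gdf10 subset came after it, at 320 CPM in F592A and 227 CPM in WT. In all 3 of these Tnxb-rich subsets Tnc stayed between 138 and 156 CPM in F592A and between 146 and 239 CPM in WT. The highest subset held 119 times as much Tnxb as the lowest in F592A and 54.3 times as much in WT. For Tnc the folds were 3.91 in F592A and 3.69 in WT. The lowest Tnxb levels, 4.53 CPM in F592A and 8.97 CPM in WT, lay within the neutrophil intervals for Tnxb. These ran from 2.07 to 19.4 CPM in F592A (4 UMIs) and from 1.24 to 17.5 CPM in WT (3 UMIs). The Tnxb folds therefore rest on levels not told apart from background, and their sizes are not compared between libraries or with Tnc.

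**Figure D2:**
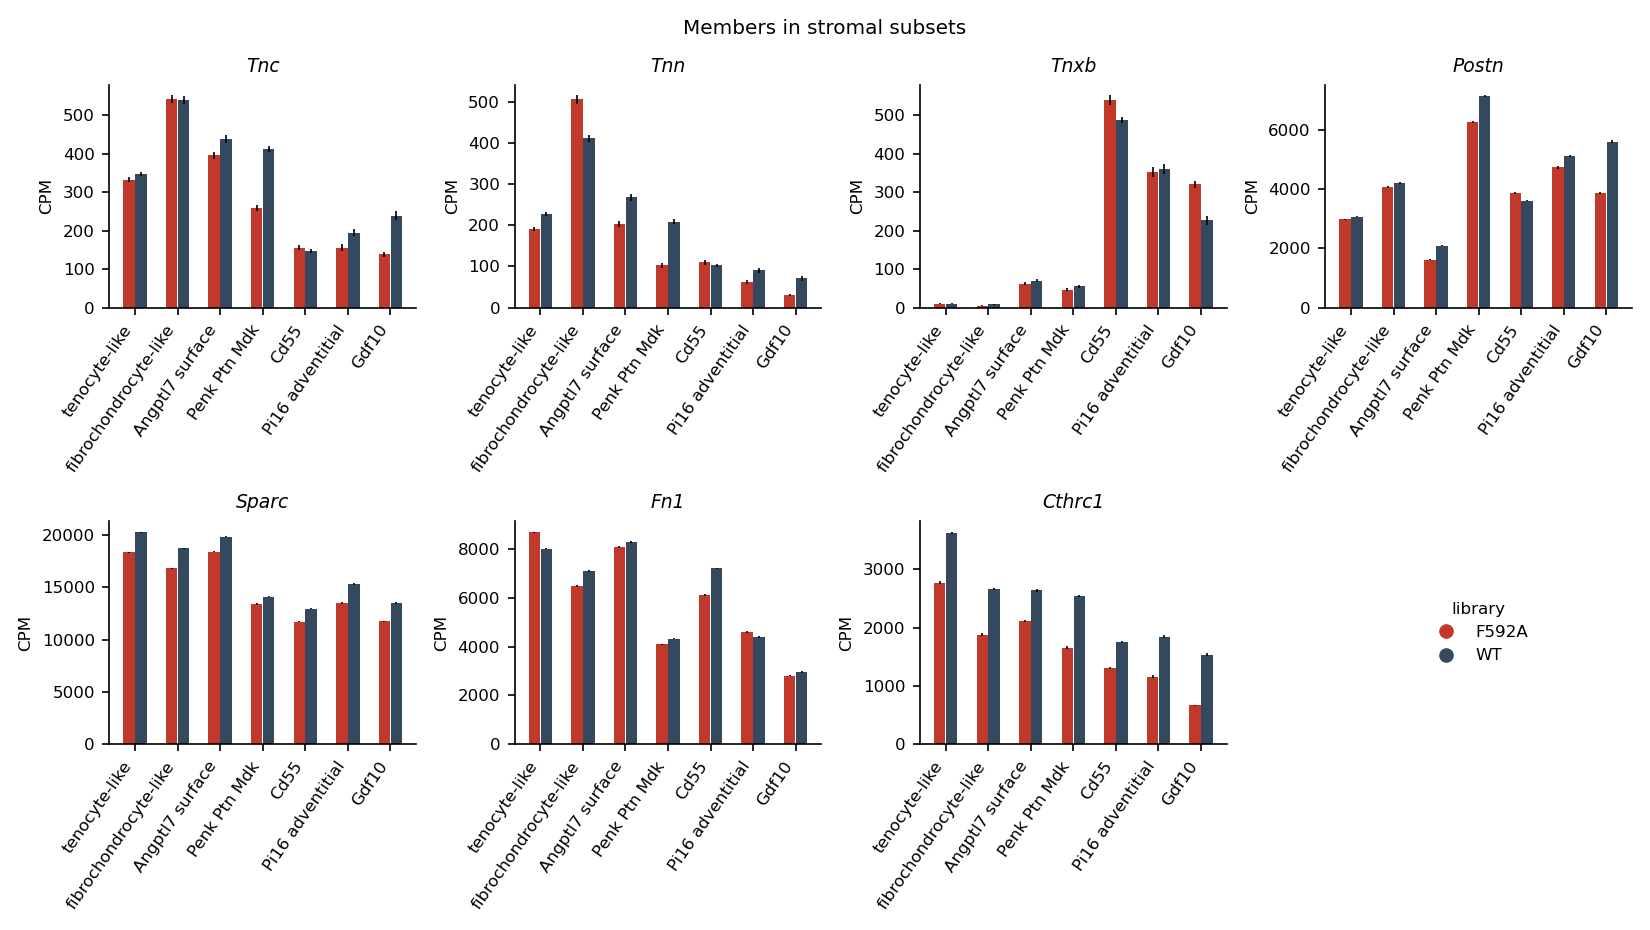
CPM of each gene (linear axis from 0) in 7 stromal subsets of the F592A and WT libraries, bars with exact Poisson 95% intervals for counting error. Tnc and Tnn peak in the fibrochondrocyte-like subset, where Tnxb is at 4.53 CPM in F592A and 8.97 CPM in WT, and Cthrc1 is lower in F592A in all 7 subsets.

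The opposed pattern also appeared in some, but not all, of the clusters built from variable genes with the 7 genes taken out. Cluster 5, led by Inhba, Pappa and Hapln1, had the most of both wound tenascins. Its Tnc was 892 CPM in F592A and 763 CPM in WT. Its Tnn was 900 CPM in F592A and 675 CPM in WT. Its Tnxb was 6.82 CPM in F592A and 20.5 CPM in WT. Cluster 8, led by Cd55 and Efemp1, had the most Tnxb in F592A, at 586 CPM in F592A and 503 CPM in WT, and Tnc of 121 CPM in F592A and 151 CPM in WT. Cluster 7, led by the complement genes C3, C7 and C4b, was close, with Tnxb of 571 CPM in F592A and 510 CPM in WT. Cluster 6, led by Gpha2 and Chad, had the least Tnxb, at 2.38 CPM in F592A and 3.42 CPM in WT. Yet its Tnn, 167 CPM in F592A and 197 CPM in WT, lay below all stromal cells (195 and 230 CPM). In WT cluster 18, led by Ube2c and Cenpf, Tnc was 459 CPM and Tnn 367 CPM. Its Tnxb there, 135 CPM, was close to the 136 CPM of all WT stromal cells. Across single stromal cells the log-scaled values of Tnc and Tnn had a Pearson r of 0.52 in F592A and 0.52 in WT. Tnc and Tnxb had an r of -0.44 in F592A and -0.42 in WT, and Tnxb and Cthrc1 an r of -0.50 in F592A and -0.37 in WT. These describe 4655 F592A and 6365 WT cells that share a library and differ in depth.

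**Figure D3:**
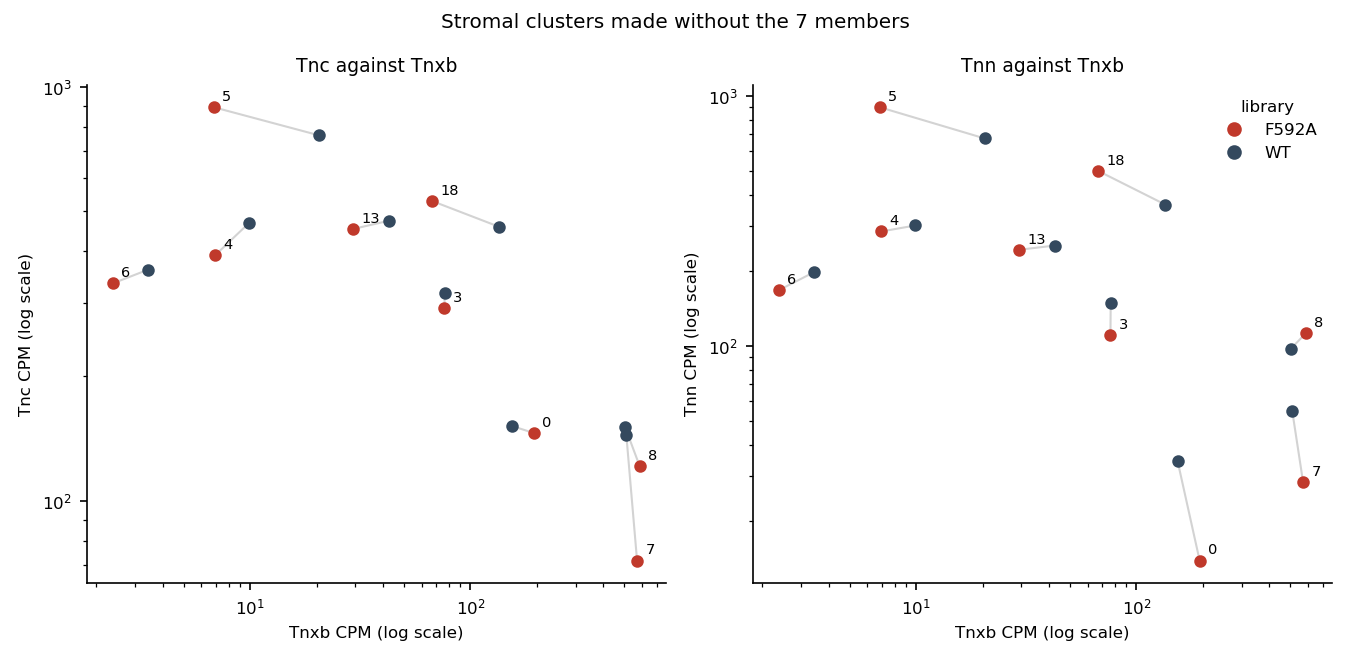
Tnc and Tnn CPM against Tnxb CPM (log axes) in 9 stromal clusters made without the 7 genes, numbered beside the F592A point, with a line to the WT point of the same cluster. Clusters 7 and 8, above 500 CPM of Tnxb in both libraries, have at most 151 CPM of Tnc, and cluster 5 has the most Tnc and Tnn.

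A contractile state gave the same split. Stromal cells with at least 4 of 5 contractile genes (Acta2, Tagln, Cnn1, Tpm2 and Myl9) numbered 1329 in F592A and 2333 in WT. In F592A Tnxb was 27.1 CPM in contractile cells and 204 CPM in the others, a log2 ratio of -2.91. In WT it was 38.8 CPM in contractile cells and 214 CPM in the others, a log2 ratio of -2.47. Tnc ran the other way, 0.72 higher on the log2 scale in contractile cells of F592A and 0.79 higher in WT. Tnn was 1.12 higher in F592A and 0.95 higher in WT. Contractile cells were deeper, with a median of 31041 UMIs against 21983 in the other F592A cells and 27113 against 19776 in the other WT cells. After thinning, 3.24% of contractile and 23.2% of other F592A cells, and 4.71% of contractile and 23.8% of other WT cells, had a Tnxb UMI. Contractile cells made up 28.5% of F592A and 36.7% of WT stromal cells. Between the genotypes Tnxb had a log2 ratio of -0.52 in contractile cells and of -0.07 in the other stromal cells, although over all stromal cells it had 0.03. With TMM scaling the value in the other cells turned to 0.04. Cycling cells, 142 in F592A and 397 in WT, were rich in Tnn. Their Tnn was 466 CPM against 182 CPM in the other F592A cells, and 348 CPM against 219 CPM in the other WT cells. Tnxb was lower in cycling cells of F592A, at 85.2 CPM against 141 CPM. In WT it was slightly higher, at 146 CPM against 135 CPM, so the split did not hold for WT cycling cells. Between the genotypes Tnxb of cycling cells had a log2 ratio of -0.78 (interval -0.93 to -0.64).

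Between the genotypes, stromal Cthrc1 had the largest difference of the 7, and no gene of the 7 passed 1.5-fold. Of 5445 stromal genes that reached 20 CPM in either library, 1.89% lay 1.5-fold or more above WT in F592A and 1.71% lay 1.5-fold or more below WT, and 0 of 7 does not stand apart from those shares. Cthrc1 was lower in F592A by a log2 ratio of -0.51, or 0.703 of the WT level. With every cell thinned to 2000 UMIs it had -0.60, past 1.5-fold. Tnc and Tnn each had a log2 ratio of -0.24 (intervals -0.26 to -0.22 for both). Postn had a log2 ratio of -0.19, Sparc of -0.11 and Fn1 of -0.05. Tnxb had 0.03, and its interval included 0. The median log2 ratio of the 7 was -0.19, beside a median of -0.10 over the 5445 genes. With TMM scaling every stromal value shifts up by 0.07, and Fn1 then lies at 0.02, so its direction is not fixed. With the 7 subsets weighted equally, Cthrc1 had a log2 ratio of -0.52.

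**Figure D4:**
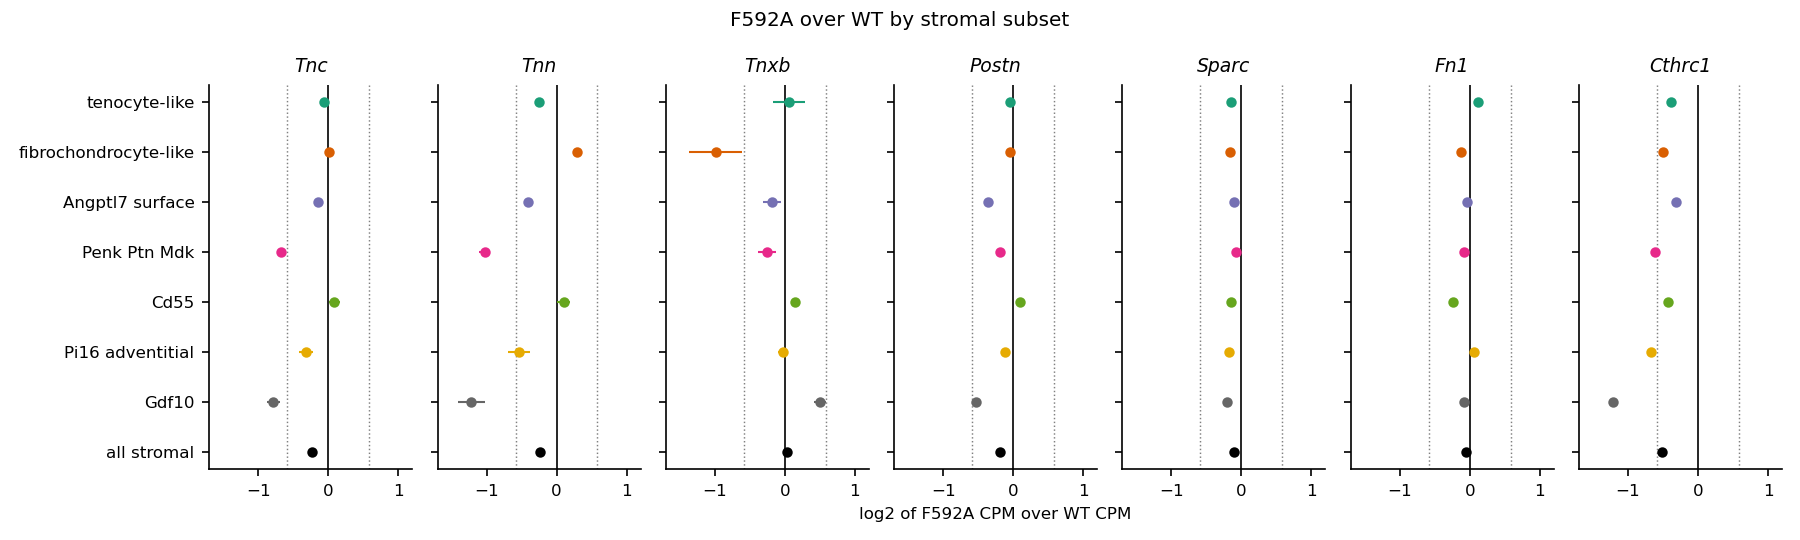
Log2 of F592A CPM over WT CPM for each gene in 7 stromal subsets and in all stromal cells, with exact conditional binomial 95% intervals for counting error; dotted lines mark 1.5-fold. Cthrc1 lies below 0 in all 7 subsets, and Tnn lies on both sides of 0, with 0.30 in the fibrochondrocyte-like and -1.22 in the Gdf10 subset.

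Cthrc1 was lower in F592A in all 7 subsets, with log2 ratios between -1.21 and -0.32. In tenocyte-like cells, its highest subset, it was 2773 CPM in F592A and 3627 CPM in WT. In the Gdf10 subset, its lowest, it was 665 CPM in F592A and 1536 CPM in WT. It passed 1.5-fold in the Gdf10, Pi16 adventitial (log2 ratio -0.68) and Penk Ptn Mdk (-0.62) subsets. With TMM scaling the Pi16 adventitial value became -0.57 and the Penk Ptn Mdk value -0.50, both short of 1.5-fold. In the 9 clusters made without the 7 genes Cthrc1 was lower in F592A each time, with log2 ratios from -1.04 in cluster 7 to -0.32 in cluster 6. It was also lower among contractile cells, at 2440 CPM in F592A and 3136 CPM in WT. Cthrc1 was 22.8 CPM in F592A and 44.4 CPM in WT macrophages. It was 57.0 CPM in F592A and 198 CPM in WT neutrophils, where a stricter gate turned the log2 ratio to 0.25. The macrophage level lies below the neutrophil level, and the part of RNA from stromal cells in them was not tested.

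The Gdf10 subset held the widest differences. It took 16.2% of F592A and 6.28% of WT stromal cells. There 3 of 7 genes were at least 1.5-fold lower in F592A, where 9.58% of 5479 genes were, and 0 of 7 were that much higher, where 2.96% of genes were. Tnn was 30.6 CPM in F592A and 71.1 CPM in WT, a log2 ratio of -1.22 (interval -1.41 to -1.03). Tnc was 138 CPM in F592A and 239 CPM in WT, a log2 ratio of -0.79. Tnxb was the gene that was higher, with a log2 ratio of 0.50 that became 0.64, past 1.5-fold, with TMM scaling. Postn had a log2 ratio of -0.53. Cluster 0, led by Gdf10 and Eln, gave like values for Tnn (-1.32), Tnxb (0.33) and Postn (-0.49), but not for Cthrc1 or Tnc. Cthrc1 was lower in F592A there too, but by a log2 ratio of -0.76 against -1.21 in the Gdf10 subset. In that cluster Tnc was 146 CPM in F592A and 152 CPM in WT, and the interval of the difference included 0. The lower Tnc of the Gdf10 subset therefore depended on how the cells were grouped, as did the size of its Cthrc1 difference.

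In the Penk Ptn Mdk subset 3 of 7 genes were also at least 1.5-fold lower in F592A, against 4.46% of 5400 genes. These were Tnn, at 102 CPM in F592A and 209 CPM in WT, Tnc, at 260 CPM in F592A and 413 CPM in WT, and Cthrc1. With TMM scaling Tnc lay at -0.55 and no longer passed 1.5-fold. In the Pi16 adventitial subset 1 of 7 was lower by that measure, against 3.41% of 5364 genes. In the other 4 subsets 0 of 7 passed 1.5-fold in either direction, with Tnxb under the 20 CPM minimum in tenocyte-like and fibrochondrocyte-like cells. The share of genes that did so was 1.73% higher and 1.22% lower in tenocyte-like cells and 2.1% higher and 1.38% lower in fibrochondrocyte-like cells. It was 2.21% higher and 4.67% lower in the Cd55 subset, and 1.94% higher and 2.24% lower in the Angptl7 surface subset. Tnn was higher in F592A in 2 of 7 subsets, with a log2 ratio of 0.30 in the fibrochondrocyte-like and of 0.10 in the Cd55 subset. In cluster 5 Tnn was likewise higher in F592A, with a log2 ratio of 0.42. In cluster 4, led by Rbp4 and Cd59a and with Sox9 among its top genes, Tnn was slightly lower. Its log2 ratio there was -0.08 (interval -0.12 to -0.04). The higher Tnn of the fibrochondrocyte-like subset therefore depended on how the cells were grouped. The factor that TMM scaling adds was over 0.1 in the Pi16 adventitial, Cd55, Gdf10 and Penk Ptn Mdk subsets, and at most 0.14.

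Postn and Sparc did not pass 1.5-fold in any of the 7 subsets. Postn was highest in the Penk Ptn Mdk subset, at 6278 CPM in F592A and 7153 CPM in WT, and lowest in the Angptl7 surface subset, at 1627 CPM in F592A and 2093 CPM in WT. It was lower in F592A in 6 of 7 subsets and slightly higher in the Cd55 subset, with a log2 ratio of 0.10, although cluster 8, led by Cd55, had -0.43. Cluster 6, led by Gpha2, Chad and Col11a2, had more Postn in F592A, 2628 CPM against 2092 CPM in WT. Sparc was lower in F592A in 7 of 7 subsets, with log2 ratios between -0.20 and -0.07, although the Penk Ptn Mdk value turned to 0.04 with TMM scaling. Its subset levels spanned 11694 to 18407 CPM in F592A and 12966 to 20271 CPM in WT.

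Fn1 was highest in the tenocyte-like subset of F592A and in the Angptl7 surface subset of WT. The tenocyte-like level was 8694 CPM in F592A and 8030 CPM in WT, and the Angptl7 surface level was 8107 CPM in F592A and 8292 CPM in WT. The Gdf10 subset was lowest, at 2809 CPM in F592A and 2970 CPM in WT. Fn1 was also found in macrophages, at 423 CPM in F592A and 680 CPM in WT. Neutrophils gave 298 CPM in F592A and 728 CPM in WT (interval 655 to 807). The WT macrophage level thus did not exceed the WT neutrophil level. In F592A the macrophage level (interval 414 to 432) lay above the neutrophil level (interval 253 to 349). Macrophages held 2.26 Fn1 UMIs per Sparc UMI in F592A and 2.90 in WT, whereas stromal cells held 0.41 in F592A and 0.39 in WT. Neutrophils held 0.61 in F592A and 0.91 in WT, and T or NK cells 0.53 in F592A and 0.87 in WT. The part of stray RNA in these values was not tested. Macrophage cluster 20, led by Mmp12, Arg1 and Gpnmb, had 1374 CPM in F592A and 1732 CPM in WT. Cluster 10, led by Ccl8, Cbr2 and Folr2, had 280 CPM in F592A and 514 CPM in WT. In macrophages Fn1 had a log2 ratio of -0.68 between F592A and WT, and in the 3 clusters the ratios ran from -0.87 to -0.33. Of the 4 genes with at least 20 CPM in macrophages, Fn1 and Cthrc1 were at least 1.5-fold lower in F592A, against 1.79% of 4974 genes.

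In the vessel-associated types the differences stood in a wider background. In pericytes Tnc had a log2 ratio of -0.60 between F592A and WT (interval -0.77 to -0.43) and Cthrc1 of -0.89. These 2 of 6 genes with at least 20 CPM passed 1.5-fold, against 7.53% of 5753 genes lower in F592A. Cthrc1 was 24.4 CPM in F592A and 45.4 CPM in WT pericytes, and 43.7 CPM in F592A and 71.7 CPM in WT endothelial cells. These levels lay below the neutrophil levels of 57.0 CPM in F592A and 198 CPM in WT, and stray RNA in them was not tested. With TMM scaling pericyte Tnc lay at -0.52 and no longer passed. In lymphatic endothelium Tnxb had a log2 ratio of -1.19 (interval -1.69 to -0.71) and Tnc, from 35 F592A and 81 WT UMIs, of -1.22, against 14.2% of 3101 genes lower in F592A. Averaged over single cells, the Tnxb value was -0.44. In endothelial cells 1 of 4, Cthrc1, was lower by that measure, against 8.17% of 5728 genes. In neutrophils Postn, Sparc, Fn1 and Cthrc1, the 4 genes with at least 20 CPM and 100 UMIs over both libraries, were lower by that measure, against 12.3% of 1257 genes. In T or NK cells 1 of 3, Fn1, was lower, against 19.5% of 1003 genes. For Sparc and Cthrc1 the neutrophil value turned positive with a stricter gate.

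Receptors, binding partners and relatives of these proteins formed a list of 49 genes, of which 45 were measured in stromal cells and 31 had at least 20 CPM. Of the 31, 1 lay 1.5-fold or more above WT in F592A, 3 lay as far below and 27 lay between, where 1.89% of the 5445 stromal genes lay above and 1.71% below. The median log2 ratio of the 45 was -0.03, beside -0.07 over all measured genes. The higher gene was Sparcl1, the closest relative of Sparc, at 37.6 CPM in F592A and 16.2 CPM in WT. The lower genes were Itgb3, the integrin subunit that pairs with Itgav to bind fibronectin, periostin and tenascin-C, Cd44, a hyaluronan receptor, and Ccn3, a CCN family matricellular gene. Itgb3 was 10.3 CPM in F592A and 20.9 CPM in WT, close to the 20 CPM minimum. Cd44 was 236 CPM in F592A and 381 CPM in WT, and Ccn3 was 149 CPM in F592A and 236 CPM in WT. Within 1.5-fold, Aebp1, a collagen-binding protein, had a log2 ratio of 0.50, Ccn1 of 0.27, Ccn2 of -0.26, Thbs3 of -0.29, Ecm1 of -0.31 and Thbs2 of -0.36. The common integrin subunit Itgb1 had 512 CPM in F592A and 467 CPM in WT.

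The genes whose levels ran most alike across 13 cell types and subsets in both libraries (26 points, Pearson r of log2 CPM among 8928 genes) differed between the 7. For Tnc they were C1qtnf6, the collagen hydroxylase P3h1 and Rcn3, with r between 0.97 and 0.98. For Tnn they were the water channel Aqp5, the fibrillar collagen Col11a1 and C1qtnf3, with r between 0.96 and 0.97. For Tnxb they were Aldh1a3, Igfbp5 and the aggrecan-cleaving protease Adamts5, with r of 0.90. For Postn they were the collagens Col5a1 and Col3a1 and the small proteoglycan Aspn, with r of 0.99. Sparc ran with Gpx7, Mxra8 and Rcn1, Fn1 with Adgrg2, Tmem45a and the homeobox gene Pitx1, and Cthrc1 with Prrx2, Sec22b and Ecrg4. Points of a library share its depth, and most of the likeness sets stromal cells against other cells.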

How the data were processed

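The authors deposited UMI counts per gene and barcode, made with Cell Ranger 6.0.1 per the file headers. The build is mm10 per the submitters' processing notes, which list version 2.1.1 of Cell Ranger. Every deposited barcode had at least 500 UMIs, so shallower droplets are not analysed here. The libraries held 181472230 UMIs in 10677 F592A barcodes and 222874195 UMIs in 14868 WT barcodes. Kept barcodes had 500 or more genes, 1000 or more UMIs and no more than 15% mitochondrial UMIs, and Scrublet removed 220 F592A (2.54%) and 342 WT (2.95%) predicted doublets.

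A cell was typed where enough markers of a single type had a UMI (stromal 6 of 8, macrophage 5 of 9, endothelial 4 of 7, pericyte 4 of 6, neutrophil 3 of 5). Cells with several or no types were left out (849 F592A and 1176 WT cells). Stromal cells went to the subset with the highest mean marker z-score if above 0.25. Leiden clusters (2000 variable genes less the 7, 30 components, 15 neighbours, resolution 0.8; scanpy 1.11.5) gave a second view. UMIs were summed per type and library and given as CPM with exact Poisson intervals. Log2 ratios are F592A over WT with exact conditional binomial intervals. They were checked on simulated stromal counts that held counting error only, so the check does not bear on spread between cells or mice. They count as past the fold from 1.5-fold where either library reached 20 CPM and both together 100 UMIs. TMM (edgeR 4.0.16) and median-of-ratios (DESeq2 1.42.0) factors were alternatives. All 7 genes were named, with the 3 genes most like each and the 10 listed partner genes furthest apart. The genes and lists were chosen with earlier results of these data known.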

Additional observations from a re-analysis of the deposited data

Results flagged for a closer look

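The difference between genotypes in Tnn went opposite ways in 2 stromal subsets. Its log2 ratio of F592A over WT was 0.30 in the fibrochondrocyte-like subset, from 9140 F592A and 9986 WT UMIs, and -1.22 in the Gdf10 subset, from 435 F592A and 491 WT UMIs. Both counting intervals excluded 0. The higher value depended on the grouping, since Tnn had a log2 ratio of -0.08 in cluster 4, led by Rbp4, and of 0.42 in cluster 5. The difference between the subsets was not tested, since each genotype has 1 library.

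Cells gated as Schwann cells, the glia of nerves, were too few for the comparisons, with 4 cells in F592A and 10 in WT. Even so, 3 genes stood above the neutrophil level of the same library in both. Sparc was 7723 CPM in F592A (423 UMIs) and 8117 CPM in WT (785 UMIs). Postn was 1461 CPM in F592A (80 UMIs) and 1448 CPM in WT (140 UMIs). Tnc was 347 CPM in F592A (19 UMIs) and 103 CPM in WT (10 UMIs). The part of neighbouring stromal RNA in these few cells was not tested.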

How the results depend on the processing

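No paired analysis was possible because each genotype has 1 library, and for the same reason no replicate could be left out. The stromal log2 ratios of F592A over WT kept their direction except for Fn1, which turned to 0.022 with TMM and 0.019 with median-of-ratios factors. Most alternatives moved a value past its narrow counting interval. With TMM factors Tnc was -0.16, Tnn -0.17, Tnxb 0.10, Postn -0.12, Sparc -0.038 and Cthrc1 -0.44; with median-of-ratios factors these were -0.17, -0.17, 0.098, -0.12, -0.041 and -0.44. Averaged over single cells, Tnc was -0.30, Tnn -0.35, Tnxb 0.14, Postn -0.20, Sparc -0.15, Fn1 -0.10 and Cthrc1 -0.58. Thinned to 2000 UMIs, they were -0.33, -0.42, 0.17, -0.20, -0.15, -0.088 and -0.60 in the same order. With subsets weighted equally Tnn was -0.20, Tnxb 0.13, Postn -0.17, Sparc -0.14 and Cthrc1 -0.52. Without cycling cells Tnn was -0.26, Tnxb 0.066, Postn -0.20, Sparc -0.13 and Fn1 -0.060. With a stricter gate Sparc was -0.12, Fn1 -0.065 and Cthrc1 -0.52, and by clusters Sparc was -0.11. The other stromal values stayed inside their intervals. Of stromal genes, 103 were at least 1.5-fold higher and 93 lower in F592A; the lower count was 56 with TMM and 57 with median-of-ratios factors, and at 2-fold the counts were 15 higher and 20 lower. In neutrophils the stricter gate turned Tnc to 2.44, Tnn to 1.13, Sparc to 1.00 and Cthrc1 to 0.25. In the other types and subsets 8 of 77 values changed sign with TMM factors, 5 as means over cells and 6 of 26 with the stricter gate. The causes were not tested. Without barcodes found in both libraries and without cycling cells in subsets were added after seeing the data. Lymphatic, T or NK and neutrophil values rest on few UMIs of these genes.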
